A study of Mus musculus with 81 samples.

Results

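In mouse T cells of a hybridoma line, 133 of 24391 gene symbols were higher both in lines edited to lose the transcription factor RBPJ and after expression of the Notch1 intracellular domain. Levels are in CPM, counts scaled to a library total of 1000000. The genes were chosen by measured values: a gene was taken when log2(mean CPM + 1) was at least 1 higher in the 4 libraries of the RBPJ-edited lines 2-12 and 2-14 than in the 2 libraries of the control line. The same quantity also had to be at least 1 higher with BioNICD1 than with Biocontrol in control cells, and the 2 control-line libraries together had to hold more than 3 counts. Of 12768 symbols with that many control counts, 650 (5.09%) passed the condition on the edited lines and 518 (4.06%) the condition on BioNICD1. Both were met by 141, of which 8 were left out by name: Hes1, Lgmn, Notch1 and 5 Gbp genes. The levels in these 5 groups are therefore given as a description, without a test. The choice leans on the 2 control-line libraries: without replicate 1 the rule gave 101 genes, 97 of them among the 133, and without replicate 2 it gave 127, of which 86 are.

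The study also profiled chromatin, which is not used here, and 41 of its RNA-seq libraries are analysed, in 16 groups and 5 experiments, all in this hybridoma line. The control line (Control_sgRbpj) and the CRISPR-edited lines sgRbpj_2-12 and sgRbpj_2-14 have 2 libraries each, and each edited line is 1 line, so that its differences include whatever is particular to that line. NICD1-ER, a fusion of the Notch1 intracellular domain that responds to (Z)-4-hydroxytamoxifen (4-OHT), was induced with 1 µM for 4, 8 or 24 h, and its ethanol control (EtOH) was taken at 24 h. At 4 h and at 8 h there are 3 libraries, of which replicates 1 and 2 were nearly identical and were summed. For ethanol and for 24 h of 4-OHT, replicates 2 and 3 are used: 2 columns of the table carry the name of ethanol replicate 1, cannot be told apart and were not used, and replicate 1 of 24 h 4-OHT is not analysed here. Cells with GFP (Control_KYOT2), GFP-KYOT2_WT or GFP-KYOT2_WWAA have 3 libraries each, where WWAA is the KYOT2 mutant defective in binding RBPJ. In a further experiment cells received the gamma-secretase inhibitor DAPT (GSI) at 20 µg/ml for 24 h or DMSO, with 2 libraries each. BioNICD1_WT or Biocontrol was expressed in control cells or in an RBPJ-depleted background, with 3 libraries for each of these 4 groups, and the labels do not say which edited line that background is. Nothing in the labels says that replicates came from separate cultures, so the p-values measure the spread between these libraries, which may be technical.

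Notch receptors, once cut by gamma-secretase, release an intracellular domain that enters the nucleus and binds RBPJ. Without that domain RBPJ holds corepressors at its sites, and with it the complex recruits coactivators, so that a gene bound by RBPJ can rise either when RBPJ is lost or when Notch is switched on. KYOT2 is a LIM-domain protein that binds RBPJ and is known as a corepressor. Interferon-stimulated genes, a large share of the fixed-list members below, encode antiviral effectors and nucleic acid sensors and are usually driven through STAT and IRF factors at an element with spaced GAAA repeats.

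Rbpj, the targeted gene, stood at 134 and 170 CPM in the 2 control-line libraries and between 32.2 and 59.7 CPM in the 4 edited libraries. It stood between 81.6 and 94.2 CPM in the 6 control-cell libraries of the BioNICD1 experiment and between 17.9 and 28.6 CPM in the 6 depleted ones. Library totals ran from 2377028 to 14244209 counts, and 3 counts were worth 0.211 to 1.26 CPM. The summed level of 9 T cell markers lay between 801.9 and 2296 CPM in every library. Markers of B cells other than the member Cd22 summed to at most 0.841 CPM, with Ms4a1 at 0 in all libraries, and 7 myeloid markers to between 8.50 and 89.5 CPM, with Csf1r, Cd14 and Adgre1 below 1 CPM in all. Levels in bulk RNA do not tell fewer expressing cells apart from less RNA per cell. The depleted libraries sgRbpj+Biocontrol replicate 3 and sgRbpj+BioNICD1_WT replicate 1 differed from the others of their groups far beyond sampling noise (chi-square per gene 23.1 to 52.6), as did the replicate 3 libraries of the KYOT2 experiment (13.3 to 26.2). Counts that rest on them are given with and without them.

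Of 7 gene lists chosen with earlier results of these data known, the interferon response list had the most members, 18 of 49 genes: Isg15, Ifit1, Ifit2, Mx1, Oas3, Rsad2, Usp18, Irgm1, Irgm2, Cxcl10, Xaf1, Zbp1, Ddx58, Ifih1, Parp14, Trim30a, Ly6c1 and Ly6c2. The list of cytokines, chemokines and their receptors had 5 of 67 (Il22, Il2rb, Il4ra, Il12rb1 and Ccl5) and that of adhesion and migration 3 of 44 (Plxnd1, Adgrg1 and Adgrg3). The Notch target list had 2 of 20, Bcl6 and Deptor. The cytotoxic list had 1 of 24, Serpinb9, and the T cell receptor and lysosome lists had none of 34 and none of 31. The other 104 members belong to no list. By known role, and grouped after membership was known, they include the RNA sensor component Dhx58, the DNA sensing adaptor Tmem173, the ISG15-activating enzyme Uba7 and the interferon-inducible genes Cmpk2, Mndal, Ifi203, Herc6, Epsti1, Oas1b, Trim34a and Ifitm3. Signalling regulators among them are Socs1, Socs3, Smad7, Ksr1 and Rasa3. Transcription factors among them are Irf4, Egr1, Nfatc2, Rxra and Foxb1. Surface molecules among them are Cd7, Cd22, Ly75, Spn and Tnfsf10. No count or test rests on this grouping.

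The members lay in 12 pairs of neighbouring protein-coding genes in the RefSeq order of GRCm38, involving 23 genes, among them Il22 and Iltifb, Ly6c1 and Ly6c2, Trim30a and Trim30d, Rsad2 and Cmpk2, and Adgrg1 between Adgrg5 and Adgrg3. Il22 and Iltifb, Ly6c1 and Ly6c2, Phf11a and Phf11b, Trim34a and Trim34b, and Trim30a and Trim30d are closely related copies, so that counting may have split or shared their reads, and the values of each should be read with those of its partner.

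Promoter sequence was examined because 18 of the 133 members are on the interferon list and the rule is built on RBPJ. RefSeq (GRCm38.p6) gave windows of 250 bases before to 50 after a start site for 95 of the 133 members (71.4%). That is under 80%, so the comparison of members with all genes is void, and the shares only describe these windows. Both strands were searched for an interferon element written as GAAA, any 2 bases and GAAA, for TGGGAA, the core of the RBPJ site, and for CGTGGGAA, a longer RBPJ site that contains the shorter one. The interferon element stood in the windows of 22 members (23.2%), 10 of them among the 14 interferon-list members with a window, against 3.99% of all 27025 genes and 3.44% of all 32851 windows. Around the match the windows of Mndal and Ifi203, of Phf11a and Phf11b, and of Trim30a and Trim30d are nearly identical. The 22 members therefore hold fewer separate sequences. TGGGAA stood in 21 (22.1%) against 28.3% of genes and 25.6% of windows, and CGTGGGAA in 1, Btbd19 (1.05%), against 0.862% of genes and 0.734% of windows. A match is a description of these letters, not a binding site. The next lines show 100 bases upstream of the start site, around the match, for 6 interferon-list members, the 1 member with the longer RBPJ motif, and Cd22, the member with the largest BioNICD1 difference. Each is written 5′ to 3′ on the gene's strand, and only the match named in its line is in capitals. Left in small letters are further interferon elements, at 78 and 66 bases before the start site of Isg15 and 24 before that of Irgm1. So are an element on the opposite strand of Ifit1 at 104 bases, and TGGGAA on the opposite strand of Isg15 at 105 bases.
Isg15, chr4:156200836-156200935, minus strand, match starting 72 bases before the start site: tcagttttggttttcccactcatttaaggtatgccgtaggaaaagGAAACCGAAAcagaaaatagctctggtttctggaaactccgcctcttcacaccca
Ifit1, chr19:34640759-34640858, plus strand, match 85 bases before, on the opposite strand: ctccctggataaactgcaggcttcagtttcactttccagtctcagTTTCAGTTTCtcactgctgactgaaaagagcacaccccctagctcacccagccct
Rsad2, chr12:26456518-26456617, minus strand, match 120 bases before, on the opposite strand: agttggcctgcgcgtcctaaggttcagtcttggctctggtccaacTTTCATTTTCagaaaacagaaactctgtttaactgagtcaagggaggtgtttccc
Irgm1, chr11:48871421-48871520, minus strand, match 30 bases before: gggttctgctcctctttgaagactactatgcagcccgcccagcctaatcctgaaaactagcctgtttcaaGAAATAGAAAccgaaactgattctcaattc
Irgm2, chr11:58214868-58214967, plus strand, match 64 bases before: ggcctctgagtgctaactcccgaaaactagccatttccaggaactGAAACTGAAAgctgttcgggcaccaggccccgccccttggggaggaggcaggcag
Oas3, chr5:120777680-120777779, minus strand, match 75 bases before: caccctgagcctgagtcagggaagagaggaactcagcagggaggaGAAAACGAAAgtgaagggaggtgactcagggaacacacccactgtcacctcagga
Btbd19, chr4:117125809-117125908, minus strand, match 235 bases before: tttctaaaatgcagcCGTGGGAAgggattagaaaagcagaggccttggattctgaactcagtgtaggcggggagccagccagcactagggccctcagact
Cd22, chr7:30879121-30879220, minus strand, match 145 bases before: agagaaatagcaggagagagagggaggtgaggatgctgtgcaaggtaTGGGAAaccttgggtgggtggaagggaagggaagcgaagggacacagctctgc

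In the groups that chose them, the members had median differences of 1.72 (edited lines) and 1.73 (BioNICD1) in log2(CPM + 1), with maxima of 6.19 for Ly75 and 7.40 for Cd22. Both control-line libraries lay below all 4 edited libraries for 122 members, against 21.7% of all symbols with enough control counts. All 3 Biocontrol libraries lay below all 3 BioNICD1 libraries for 133, against 29.6%. The rule chose the members by their differences in these same libraries, so nothing is read from these counts. Just inside the threshold lay Trp53i11 (1.00 and 1.25), Cyp39a1 (1.08 and 1.01) and Sh3pxd2a (1.01 and 1.13), where the values are the edited-line and the BioNICD1 difference. Just outside lay Bcl2 (3.02 and 0.996), Psmb10 (0.996 and 2.44) and Traf5 (1.97 and 0.992). The myeloid markers summed to 42.9 and 58.9 CPM in the control line and to between 21.8 and 32.6 CPM in the edited libraries, and their part in these differences was not tested. The 4 erythroid markers summed to 12.2 and 14.98 CPM in the control line and to between 6.64 and 9.96 CPM in the edited libraries. The 5 NK cell markers, of which Klrb1c, Klre1 and Eomes were below 1 CPM in every library, summed to 0.421 and 1.04 CPM in the control line and to between 1.40 and 5.90 CPM in the edited libraries. They summed to at most 0.485 CPM with Biocontrol and to between 3.28 and 3.66 CPM with BioNICD1. The 9 T cell markers summed to between 1431 and 1582 CPM with Biocontrol and to between 2021 and 2296 CPM with BioNICD1. The part of these markers in the differences was not tested either. Control levels were low: 29 members rested on 4 to 10 control counts and 34 on more than 100.

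**Figure D1:**
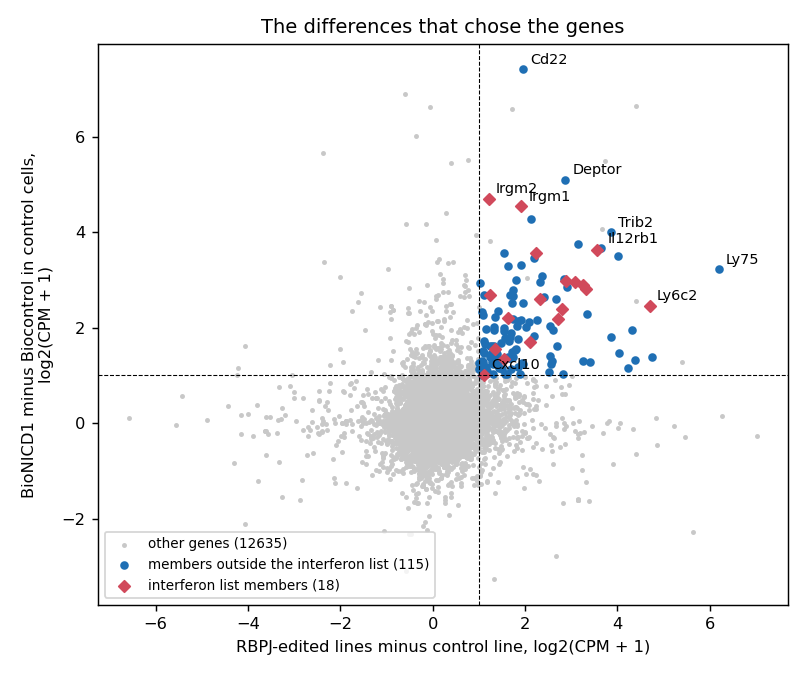
Difference between the edited lines and the control line (horizontal axis) and between BioNICD1 and Biocontrol in control cells (vertical axis), both in log2(CPM + 1), for the 12768 symbols with more than 3 control counts. Members lie right of and above the dashed lines at 1, with Cd22 highest at 7.40 and Ly75 farthest right at 6.19.

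Trib2, a pseudokinase gene that is a known Notch target in T cells, came first when members were ordered by the smaller of their differences. It was at 0 and 0.833 CPM in the control line, at 17.0 and 16.8 CPM in line 2-12 and at 25.1 and 19.2 CPM in line 2-14. In control cells it was at 0.606, 0.446 and 0.246 CPM with Biocontrol and at 21.6, 22.1 and 21.9 CPM with BioNICD1. The high and low libraries did not overlap on either side, although the control level rests on 4 counts. Il12rb1, a chain of the IL-12 and IL-23 receptors, was at 3.37 and 8.74 CPM in the control line and between 75.6 and 99.5 CPM in the edited libraries. It was between 3.82 and 4.85 CPM with Biocontrol and between 57.8 and 73.7 CPM with BioNICD1. Il2rb, the shared beta chain of the IL-2 and IL-15 receptors, differed between the edited lines: 11.2 and 10.5 CPM in 2-12 and 67.6 and 59.5 CPM in 2-14, with 0.421 and 2.29 CPM in the control line.

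Some members followed the replicate number in all 3 lines. Socs3, a cytokine signalling inhibitor gene, was at 10.5 and 0.833 CPM in replicates 1 and 2 of the control line, at 27.5 and 2.27 CPM in line 2-12 and at 18.2 and 2.33 CPM in line 2-14. Egr1, an immediate early transcription factor gene singled out after its values were seen, was at 5.47 and 1.25 CPM, at 10.7 and 2.80 CPM and at 32.9 and 3.83 CPM. Replicate 1 was the higher library in each line for both genes, and their groups overlap.

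The edited lines differed for some members. Both lines, each taken alone, reached a difference of 1 for 106 members, line 2-12 for 124 and line 2-14 for 115. Plxnd1, a semaphorin receptor gene, was at 19.9 and 33.0 CPM in line 2-12 but at 2.46 and 2.33 CPM in line 2-14. Cntnap2, a gene of a neurexin-like adhesion protein, was at 11.7 and 13.8 CPM in line 2-12 and at 0 and 0.333 CPM in line 2-14, where the control line had 0 and 1.25 CPM. Plekhg3, singled out after its values were seen, was at 52.2 and 60.8 CPM in line 2-12 and at 0 and 0.167 CPM in line 2-14. Cd7, a T cell surface glycoprotein gene, went the other way, with 0.729 and 0.175 CPM in line 2-12 and 19.9 and 12.7 CPM in line 2-14. For these genes the rule was met by 1 line, and an effect of RBPJ loss cannot be told apart from other differences between the lines.

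The interferon-list members were raised to unequal extents on the 2 sides. Irgm1 and Irgm2, immunity-related GTPase genes, had edited-line differences of 1.92 and 1.22 and BioNICD1 differences of 4.54 and 4.70. Irgm1 was at 6.31 and 6.66 CPM in the control line and between 19.4 and 36.0 CPM in the edited libraries, while it was at 16.6, 17.4 and 17.6 CPM with Biocontrol and at 400.5, 424 and 444 CPM with BioNICD1. Ly6c2, a surface antigen gene of activated and memory T cells, was the reverse, with differences of 4.70 and 2.46. It was at 1.26 and 1.04 CPM in the control line, at 68.8 and 85.3 CPM in line 2-12 and at 30.7 and 35.2 CPM in line 2-14, and between 6.70 and 8.44 CPM with BioNICD1. Ifih1, which encodes the RNA sensor MDA5, had like differences of 3.07 and 2.95. Parp14, a mono-ADP-ribosyltransferase gene, had 3.55 and 3.62.

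**Figure D2:**
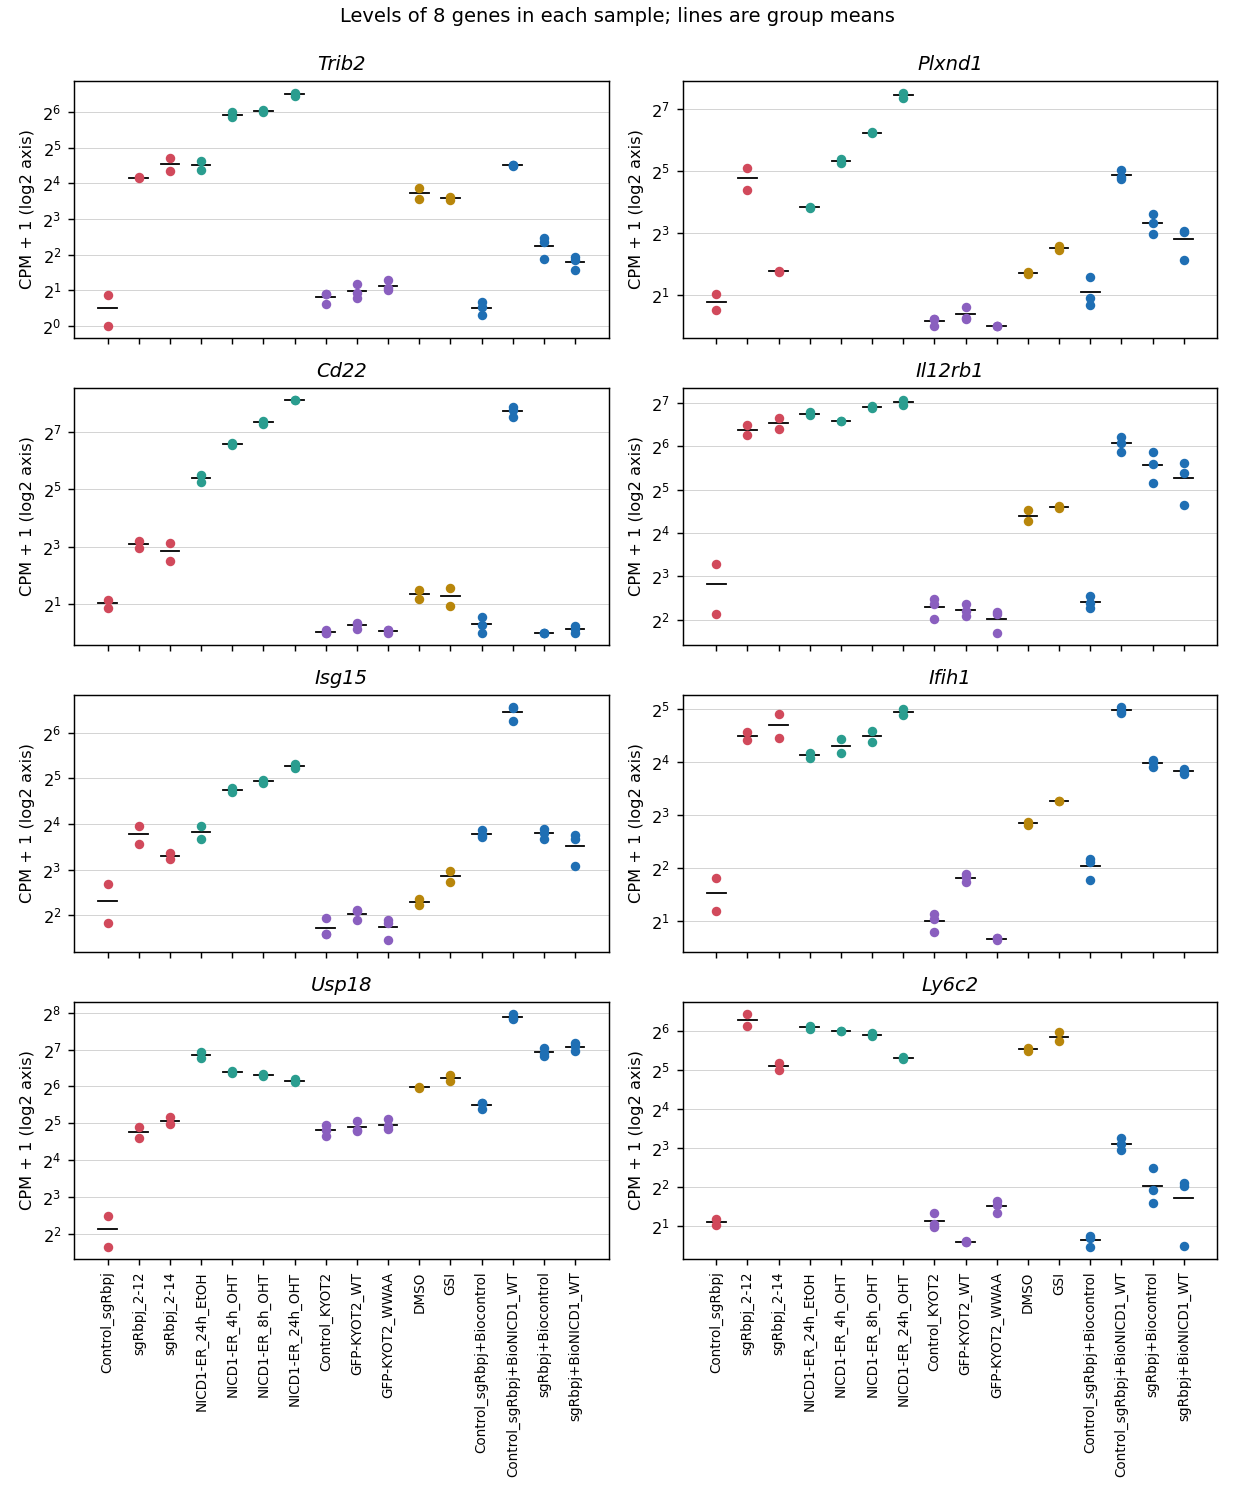
Level of 8 members in each sample of the 16 groups, as CPM + 1 on a log2 axis, where points are samples and short lines are group means. Trib2, Plxnd1 and Cd22 climb with time of 4-OHT, Usp18 and Ly6c2 descend, and Cd22 stays at or below 0.198 CPM in all 6 RBPJ-depleted libraries of the BioNICD1 experiment.

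NICD1-ER gave a test that the rule did not use. The NICD1-ER cells were fitted with edgeR's quasi-likelihood test, 2 samples per group, with Benjamini-Hochberg adjustment over all 11808 genes tested and a threshold of 0.05. After 24 h of 4-OHT, 65 of 133 members (48.9%) rose and 8 fell, against 6.59% and 4.22% of all genes. Their median log2 fold change was 0.40, against -0.01 over all genes tested. After 8 h, 39 rose and 9 fell (background 5.06% and 5.31%, median 0.15), and after 4 h, 31 rose and 10 fell (background 3.16% and 3.09%, or 6.25% in either direction, median 0.05). All 133 passed the filter on low counts here. The 4 h and 8 h groups are compared with ethanol taken at 24 h, so time in culture is part of these contrasts. DESeq2 called 48 up and 6 down at 24 h (background 2.29% and 0.961%), 30 and 5 at 8 h (background 1.12% and 1.14%) and 20 and 3 at 4 h (background 0.69% and 0.48%). These DESeq2 shares are of 18113 genes with low counts kept, so they are not comparable with the edgeR shares of 11808. The 24 h libraries of 4-OHT differed from each other by less than sampling noise (chi-square per gene 0.928), so their spread may understate that between cultures.

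Cd7, Plxnd1, Cntnap2, Mical1, Iltifb and Cd22 had the largest fitted rises of the members at 24 h. Cd7 was at 1.85 and 1.15 CPM with ethanol, at 2.401 and 2.13 CPM at 4 h, at 6.24 and 4.45 CPM at 8 h and at 39.3 and 36.1 CPM at 24 h. Its 24 h level lay above every other NICD1-ER sample (log2 fold change 4.68, SE 0.230, edgeR adjusted p = 3.56e-10), while the 4 h change did not pass (0.65, adjusted p = 0.453). Plxnd1 was at 13.4 and 13.0 CPM with ethanol and at 183 and 162 CPM at 24 h (3.72, SE 0.0962, adjusted p = 7.45e-14). It had already passed at 4 h (37.4 and 40.4 CPM, 1.54, adjusted p = 7.35e-07). Cntnap2 rose by 3.57 (adjusted p = 6.46e-10) and Mical1, which encodes an actin-oxidizing enzyme acting downstream of plexins, by 3.06 (adjusted p = 1.42e-10). Cd22, a sialic acid-binding receptor gene best known in B cells, was at 37.5 and 43.6 CPM with ethanol and at 271 and 275 CPM at 24 h (2.75, SE 0.0671, adjusted p = 6.85e-14). The 24 h calls named here held in every alternative fit, DESeq2 and each left-out sample included.

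Iltifb and Il22 had passed by 4 h, while Il2rb and Il4ra passed at 24 h and not at 4 h or 8 h. Iltifb, a copy of Il22, was at 4.39 and 4.98 CPM with ethanol, at 22.5 and 23.0 CPM at 4 h, at 35.2 and 35.6 CPM at 8 h and at 34.2 and 32.6 CPM at 24 h. It had the largest rise of the members at 4 h (2.26, SE 0.164, adjusted p = 1.92e-07). Il22, which encodes a cytokine acting on epithelia, was at 9.71 and 10.5 CPM with ethanol, 31.2 and 30.6 CPM at 4 h and 46.6 and 46.8 CPM at 24 h (1.60 at 4 h and 2.21 at 24 h). Il2rb and Il4ra, a chain of the IL-4 and IL-13 receptors, moved late. Il4ra was at 6.93 and 7.46 CPM with ethanol, 6.24 and 7.93 CPM at 4 h, 5.07 and 7.97 CPM at 8 h and 15.2 and 20.7 CPM at 24 h (1.31, adjusted p = 0.000858). Il2rb stood between 41.3 and 50.0 CPM until 8 h and at 87.7 and 92.1 CPM at 24 h (1.12, adjusted p = 4.19e-08). Of the 5 members of the cytokine and receptor list, 4 rose at 24 h, with a median of 1.12, against 6.59% of all genes. Ccl5, a chemokine gene, did not pass (-0.69, adjusted p = 0.182). Of the 37 tested genes of that list that are no members, 12 rose and 12 fell at 24 h, with a median of 0.08.

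Of the 18 interferon-list members, 10 rose at 24 h and 3 fell, with a median of 0.46, and 2 rose and 2 fell at 4 h, with a median of -0.02. Isg15, a ubiquitin-like antiviral modifier gene, was at 14.6 and 11.7 CPM with ethanol and at 38.6 and 36.6 CPM at 24 h (1.54, SE 0.131, adjusted p = 2.86e-07). It had passed by 4 h (26.7 and 24.9 CPM, 1.00, adjusted p = 0.000132). Ifih1 rose by 0.86 at 24 h (adjusted p = 0.000485), Zbp1, a nucleic acid sensor gene, by 0.72 (adjusted p = 6.94e-05), Parp14 by 0.65 and Irgm2 by 0.58. Irgm1, the member of the list with the second largest BioNICD1 difference, rose by only 0.30 (adjusted p = 0.0451). Usp18, which encodes the protease that removes ISG15, fell: it was at 120 and 109 CPM with ethanol, 83.9 and 81.2 CPM at 4 h and 72.0 and 68.7 CPM at 24 h (-0.46 and -0.69, adjusted p = 9.77e-05 and 1.28e-06). Ly6c1 and Ly6c2 fell at 24 h (-0.75 and -0.79). Ly6c2 was at 68.4 and 65.5 CPM with ethanol and at 39.3 and 37.6 CPM at 24 h. Mx1, Oas3, Rsad2, Ifit1 and Cxcl10 did not pass at 24 h (-0.52, -0.06, 0.15, 0.41 and 1.26, adjusted p from 0.164 for Mx1 to 0.715 for Rsad2). Of the 27 tested genes of that list that are no members, 10 rose and 1 fell at 24 h, with a median of 0.32.

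Of the 2 members on the Notch target list, Deptor, an mTOR inhibitor gene, rose at all 3 times (0.41, 0.63 and 1.02). Bcl6, a transcriptional repressor gene, had 10.9 and 7.66 CPM with ethanol, 4.58 and 5.38 CPM at 8 h and 9.40 and 13.6 CPM at 24 h. It fell at 8 h (-0.91, adjusted p = 0.0258) and did not pass at 24 h (0.33, adjusted p = 0.463). The 8 h call was lost in DESeq2, without ethanol replicate 2 (adjusted p = 0.223) and without the pooled 8 h replicates 1 and 2 (adjusted p = 0.223). The 12 tested list genes that are no members gave 6 rises and 1 fall at 24 h, with a median of 0.42, among them Hey1 (4.44), Dtx1 (1.38), Hes1 (0.71) and Il2ra (0.51). Trib2 rose from 19.9 and 23.9 CPM with ethanol to 92.2 and 86.3 CPM at 24 h (2.02, adjusted p = 2.41e-10). Serpinb9, which encodes an inhibitor of granzyme B, rose from 47.2 and 55.1 CPM to 162 and 159 CPM (1.65, adjusted p = 7.78e-11).

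**Figure D3:**
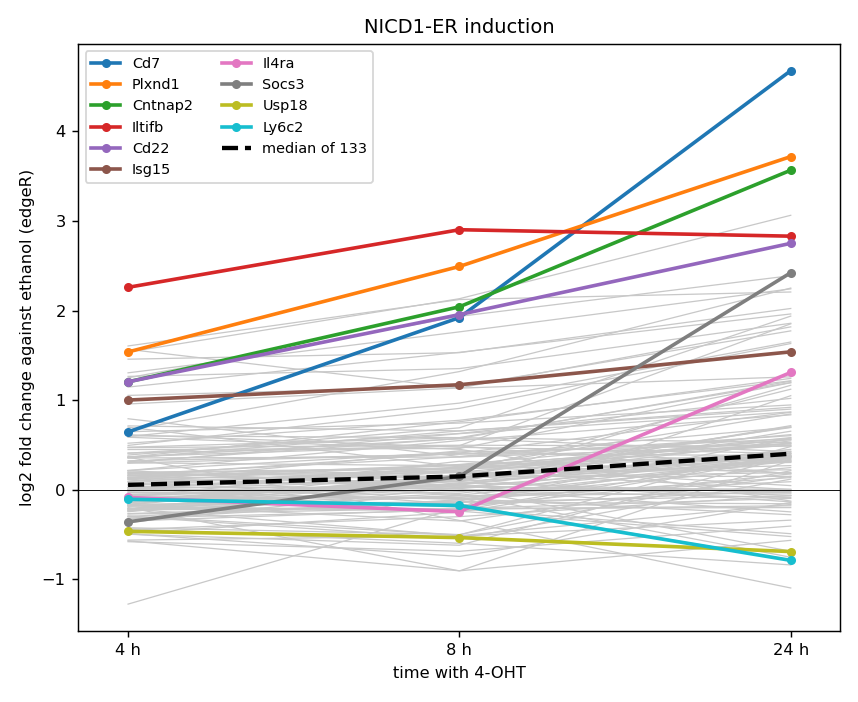
Fitted log2 fold change against ethanol (vertical axis, edgeR) after 4, 8 and 24 h of 4-OHT (horizontal axis, not to scale in time) for the 133 members, where thin lines are single genes, coloured lines named genes and the dashed line the median. The median goes from 0.05 to 0.40, Cd7 reaches 4.68, Iltifb is high from 4 h on, and Usp18 and Ly6c2 lie below 0 at 24 h.

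Among the members that fell after 24 h, Lsp1, an actin-binding protein gene of leukocytes, was at 35.4 and 40.4 CPM with ethanol and at 22.2 and 20.1 CPM at 24 h (-0.84, adjusted p = 0.000106). In the control line it was at 1.26 and 2.50 CPM, and in the edited libraries between 45.9 and 64.3 CPM. Arsb, a lysosomal sulfatase gene, fell by 0.78 and Tuba8, a tubulin gene, by 0.49. Early falls were seen for Xdh, the xanthine dehydrogenase gene (-0.49 at 4 h and -0.74 at 8 h), and Abcg1, a cholesterol transporter gene (-0.56 and -0.52). Abcg1 missed the threshold in DESeq2 (adjusted p = 0.0530 and 0.0571).

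The change between 4 h and 24 h of 4-OHT was tested directly. There is no ethanol control at 4 h, so time in culture is part of this contrast too. From 4 h to 24 h, 67 members rose and 10 fell (background 8.00% and 5.41%), with a median of 0.42. Cd7 rose by 4.03 (adjusted p = 2.25e-10), Socs3 by 2.78 (adjusted p = 7.02e-07) and Cntnap2 by 2.36. Socs3 was at 1.73 and 1.93 CPM at 4 h, 2.34 and 2.97 CPM at 8 h and 11.8 and 12.9 CPM at 24 h. Tnp2, the neighbour of Socs1, rose by 2.33, Plxnd1 by 2.18 and Akap6, a kinase-anchoring protein gene, by 1.59. Cmpk2, a mitochondrial nucleotide kinase gene next to Rsad2, fell by 1.46 (adjusted p = 0.00447), and its call was lost without 24 h 4-OHT replicate 3 (adjusted p = 0.0720) and narrowly in DESeq2 (adjusted p = 0.0504). Ly6c1, Ly6c2 and Arsb fell by 0.87, 0.68 and 0.90.

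BioNICD1 was compared with Biocontrol within RBPJ-depleted cells, whose libraries the rule did not use. The control-cell values given beside them are those of the rule and only describe. Cd22 was at 182, 215 and 229 CPM with BioNICD1 in control cells, at 0 in all 3 depleted Biocontrol libraries and at 0.198, 0.102 and 0 CPM with BioNICD1 in depleted cells, at or below the worth of 3 counts. Cd7 was at 14.9, 20.7 and 22.2 CPM in control cells and at 0.0989, 0.102 and 0.118 CPM in depleted cells with the same construct. Irgm2 was at 252, 249 and 275 CPM in control cells and at 7.51, 8.07 and 8.47 CPM in depleted cells, where Biocontrol gave 12.1, 8.87 and 10.7 CPM. Notch1, whose counts may include reads of the construct and which is named after its values were seen, was at 161 to 181.6 CPM in control cells with BioNICD1 and at 694 to 1001 CPM in depleted cells.

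In the edgeR fit of the 6 depleted libraries, 0 of the 123 members tested passed in either direction, and 10 were not tested for low counts. Of all 10830 genes tested, 0.0277% rose and 0.00923% fell, 0.0369% in either direction. The median of the members was -0.13, against -0.01 over all genes tested. At an unadjusted p under 0.05, 4 members were higher and 18 lower. The upper limit of the 95% interval lay below a log2 change of 1 for 117 of the 123. Trib2, for example, had -0.49 (interval -1.04 to 0.05), Irgm1 -0.03 (-0.38 to 0.31), Parp14 -0.12 (-0.51 to 0.28) and Ifih1 -0.04 (-0.39 to 0.30). DESeq2 called 2 up and 3 down (background 0.953% and 0.364% of 15945 genes, low counts kept).

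Without the 2 libraries that stood apart, the median of the members was -0.11, 10 were higher and 23 lower at an unadjusted p under 0.05, and the upper limit lay below 1 for 116 of 123. In that fit 3 members rose and 6 fell, against 5.03% and 4.15% of 10917 genes. These 9, named after their values were seen, include Ifitm3, an antiviral membrane protein gene, at 1.17, 2.62 and 1.16 CPM with Biocontrol and at 4.45, 6.13 and 9.76 CPM with BioNICD1. Its log2 fold change was 2.12 with all 6 libraries (adjusted p = 0.112) and 2.11 without the 2 (SE 0.332, adjusted p = 0.00187). Il2rb was lower, with 16.1, 15.9 and 10.8 CPM against 3.86, 5.93 and 7.17 CPM (-1.23, adjusted p = 0.112, and -1.22, adjusted p = 0.00117). Dscc1 (0.78) and Egr1 (0.49) were the other rises. Gpr146, Kctd12, Oas3, Smad7 and Spn were the other falls (between -0.51 and -0.88). A fit with all 4 groups of the experiment called 2 members up and 4 down (background 2.7% and 1.45%). Ifitm3, Egr1, Il2rb, Oas3 and Spn were called in these directions by that fit and by DESeq2.

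**Figure D4:**
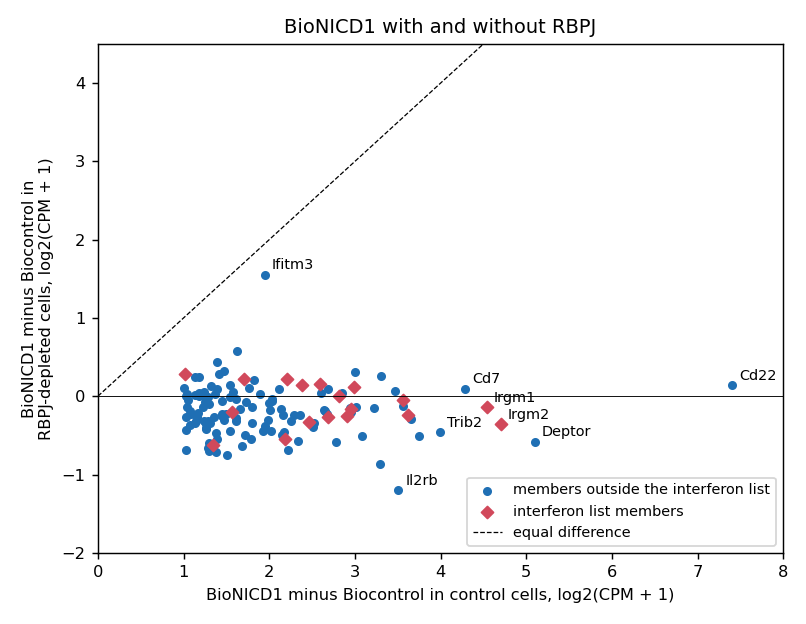
Difference between BioNICD1 and Biocontrol in log2(CPM + 1) for the 133 members, in control cells (horizontal axis, used to choose the genes) and in RBPJ-depleted cells (vertical axis). All points lie below the dashed line of equal difference, and the largest depleted-cell difference is that of Ifitm3.

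The same experiment holds depleted cells with Biocontrol alone. There the median member level was 11.2 CPM, against 3.36 CPM in control cells with Biocontrol, 19.3 CPM in control cells with BioNICD1 and 9.55 CPM in depleted cells with BioNICD1. Depleted Biocontrol cells were at least 1 higher in log2(CPM + 1) than control Biocontrol cells for 73 members (54.9%, background 5.59%). The control libraries are those of the rule, so that their low level there was selected and this is no test. Without the 2 libraries that stood apart, the count was 76 (background 7.53%) and the median levels were 11.9 CPM in depleted cells with Biocontrol and 10.5 CPM with BioNICD1. Mx1, an antiviral dynamin-like GTPase gene, was at 0.242, 0.891 and 0.740 CPM in control Biocontrol cells, 12.4, 8.84 and 12.2 CPM in control cells with BioNICD1, and 27.1, 24.3 and 31.4 CPM in depleted Biocontrol cells. Il22 went against the rule in these cells: 3.27, 3.34 and 3.45 CPM in control and 1.06, 0.907 and 0.695 CPM in depleted Biocontrol cells, although the edited lines held 7.51 to 23.6 CPM. Ly6c1, at 10.8 to 30.6 CPM in the edited lines, was at 0.106 CPM or less in the 3 depleted Biocontrol libraries. With BioNICD1, all 3 depleted libraries lay below all 3 control libraries for 95 members (background 24.3%) and above them for 15 (background 15.3%). Without the library that stood apart these were 96 and 20 (background 26% and 26.2%). The rule chose the members as high in these control BioNICD1 libraries, so nothing is read from the counts.

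KYOT2 was compared with GFP in an experiment where the members were low. Of 133 members, 101 passed the filter on low counts, and the median level in GFP cells was 1.81 CPM. With wild type KYOT2, 3 of 101 rose and 0 fell in edgeR, against 0.807% and 0.0807% of 11150 genes (0.888% in either direction), with a median of 0.29 against 0.00 over all genes. At an unadjusted p under 0.05, 29 were higher and 1 lower. DESeq2 called 2 up and 0 down (background 0.54% and 0.0704% of 17048 genes, low counts kept). The edgeR count fell to 1 without Control_KYOT2 replicate 2 or 3 or GFP-KYOT2_WT replicate 1 or 2. The share of all genes called in those fits is not given. Ncald, a neuronal calcium sensor gene, was at 0.957, 1.84 and 1.20 CPM with GFP, at 5.36, 6.04 and 5.54 CPM with KYOT2 wild type and at 0.931, 1.03 and 1.00 CPM with WWAA (2.05 against GFP, SE 0.215, adjusted p = 0.000160). Ifih1 was at 1.17, 1.05 and 0.719 CPM with GFP, 2.52, 2.32 and 2.69 CPM with wild type and 0.593, 0.601 and 0.548 CPM with WWAA (1.35, adjusted p = 0.0199). Tlr12, a Toll-like receptor gene, had 1.09 (adjusted p = 0.0453). The wild type libraries of Ncald and Ifih1 lay above all others.

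With WWAA against GFP, 0 of 101 members passed (background 0.0717% for rises, 0.0179% for falls and 0.0897% for both), and 3 were higher and 4 lower at an unadjusted p under 0.05. DESeq2 called none either. Wild type against WWAA gave 6 rises and 1 fall (background 1.26% and 0.601%). These were Ncald (2.49, adjusted p = 3.24e-05), Ifih1 (2.07, adjusted p = 0.00134), Cyp39a1, an oxysterol hydroxylase gene (1.87, adjusted p = 0.00664), Tlr12 (1.03), Fyb, a T cell adaptor gene (0.90), and Mgat5, a glycosyltransferase gene (0.50). Ly6c2 was the fall, with 0.525, 0.491 and 0.489 CPM with wild type and 1.52, 1.89 and 2.099 CPM with WWAA (-1.87, adjusted p = 0.00664). Ncald passed under all alternatives. In the comparison with GFP, Tlr12 lost its call without any 1 of the 6 libraries and Ifih1 without any 1 of 5, Control_KYOT2 replicate 1 excepted, and both in DESeq2. Against WWAA, Mgat5 lost its call without any 1 library and Tlr12 without any 1 of 5, GFP-KYOT2_WWAA replicate 1 excepted, and both in DESeq2. Without the replicate 3 libraries, 7 of 101 members rose and 0 fell with wild type against GFP (background 2.47% and 1.69%). With WWAA against GFP, 1 rose and 0 fell (background 1.48% and 1.02%), and with wild type against WWAA, 10 rose and 1 fell (background 3.07% and 2.56%).

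The gamma-secretase inhibitor gave small differences. With DMSO the mean levels of the Notch targets Hes1, Hey1, Dtx1 and Il2ra were 0.593, 0, 0.0790 and 0.488 CPM. With GSI they were 0.188, 0.194, 0.764 and 0.294 CPM. In the DMSO libraries 3 counts were worth 0.555 and 0.474 CPM, so a fall of these genes with GSI could hardly be seen. With GSI against DMSO, 23 of 126 tested members rose (18.3%, background 9.16%) and 10 fell (7.94%, background 11.6%), with a median of 0.12 against 0.00 over all genes. DESeq2 called 1 up and 1 down (background 1.18% and 2.42% of 16801 genes, low counts kept). In edgeR fewer members were called without DMSO replicate 2 or either GSI replicate. Those fits leave 1 sample in a group, and their share of all genes is not given. The 7 myeloid markers summed to 57.1 and 62.9 CPM with DMSO and to 85.6 and 89.5 CPM with GSI, and their part in these calls was not tested. The GSI libraries differed by less than sampling noise (0.766). Irgm2 was at 12.4 and 13.1 CPM with DMSO and at 22.6 and 19.3 CPM with GSI (0.69, SE 0.137, adjusted p = 0.000325, DESeq2 adjusted p = 0.173). Tapbpl, a peptide-loading gene of MHC class I, was at 8.32 and 10.4 CPM and at 15.4 and 18.03 CPM (0.80, adjusted p = 0.000338, DESeq2 adjusted p = 0.164). Foxb1, a forkhead factor gene, was at 30.0 and 31.0 CPM with DMSO and at 18.6 and 18.8 CPM with GSI (-0.72, SE 0.110, adjusted p = 7.18e-06). It alone of the 12 genes with the largest called rises and falls passed in every alternative. Those 12 include 5830418P13Rik (7.95 and 5.69 CPM with DMSO, 11.8 and 9.58 CPM with GSI). They also include Oas1b (10.5 and 12.5 CPM with DMSO, 7.21 and 9.20 CPM with GSI). Spn, the CD43 gene, fell by 0.62 and Arsb by 0.50, calls that DESeq2 did not make. The calls of Cxcl10 (1.12) and Plxnd1 (1.02) were lost without any 1 of the 4 libraries and in DESeq2. Iltifb (1.11), Ncald (-0.56) and Dhx58 (-0.54) lost theirs without DMSO replicate 2 or without GSI replicate 2. Of the 18 interferon-list members, 5 rose and 0 fell, with a median of 0.33. Of the 19 tested genes of that list that are no members, 7 rose and 0 fell, with a median of 0.14. The rises on that list were thus not particular to the members.

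The 5 control groups of the study did not hold the members at 1 level. The median member level was 3.76 CPM in the control line, 3.36 CPM in control cells with Biocontrol and 1.81 CPM with GFP, but 15.1 CPM with DMSO and 24.4 CPM with ethanol in NICD1-ER cells. The edited lines had 21.5 and 22.4 CPM. DMSO cells were at least 1 higher in log2(CPM + 1) than the control line for 81 members (60.9%, background 6.28%) and ethanol-treated NICD1-ER cells for 104 (78.2%, background 8.34%). Against GFP cells, DMSO cells were that much higher for 120 members (90.2%, background 45.6%) and ethanol-treated cells for 125 (94%, background 42.7%), and against Biocontrol cells DMSO cells for 92 (69.2%, background 50.2%). The median over 12707 genes also differed, at 49.8 CPM in the control line, 21.8 CPM with Biocontrol, 25.6 CPM with GFP, 55.8 CPM with DMSO and 52.4 CPM with ethanol. The rule selected low values in the control line and with Biocontrol, so these counts describe and do not test. For 53 members the mean DMSO level fell within the range of the 4 edited libraries. For 66 it lay below that range but above both control-line libraries. The experiments differ in handling and library preparation as well as in cells, and these cannot be told apart. Ethanol-treated NICD1-ER cells had mean levels of 87.0 CPM for Dtx1, 212 for Il2ra, 44.1 for Hes1 and 3.03 for Hey1. In the same order the control line had 0.416, 0.104, 0.945 and 0.104 CPM, and DMSO cells 0.0790, 0.488, 0.593 and 0 CPM. Whether member levels follow these Notch targets was not tested.

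Single members differed likewise between control groups. Ly75, an endocytic receptor gene (DEC-205) with the largest edited-line difference, was at 1.26 and 0.416 CPM in the control line and between 110 and 151 CPM in the edited lines, but its mean was 55.9 CPM with DMSO, 88.2 CPM with ethanol and 12.3 CPM with GFP. Usp18 was at 2.103 and 4.58 CPM in the control line and between 23.1 and 34.9 CPM in the edited libraries. It was at 62.7 and 61.3 CPM in DMSO and between 41.1 and 46.2 CPM in control cells with Biocontrol, higher than in any edited library. Adgrg3, an adhesion receptor gene, was at 0.841 and 2.50 CPM in the control line, between 46.9 and 91.8 CPM in the edited libraries and at a mean of 81.0 CPM in DMSO. For these genes the control line was the low group of the study.

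**Figure D5:**
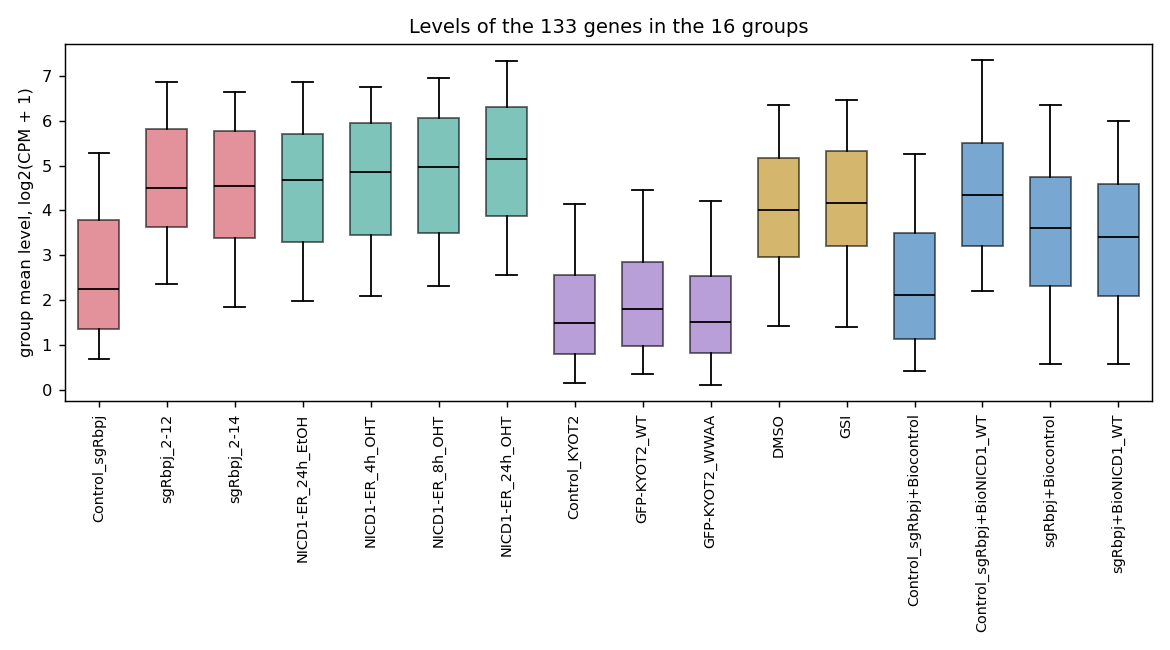
Group mean levels of the 133 members in log2(CPM + 1) in the 16 groups, where boxes span the quartiles with the median inside and whiskers the 5th to 95th percentiles. Medians are lowest with the KYOT2 experiment (1.81 to 2.49 CPM) and highest in NICD1-ER cells (24.4 to 34.3 CPM).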

How the data were processed

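RNA was sequenced from a mouse hybridoma T cell line with a stranded total RNA kit or others, per the labels' protocols. The submitters' processing notes name TopHat2 2.1.1 and the build mm9; the counting tool is not given in the sources used here. The deposited table holds whole-number counts per gene symbol, as the authors made them; 24 of its 65 columns matched no labelled sample and were not used. Peak lists of the series were not used here.

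The members and the gene lists were chosen with earlier results of these data known. Counts were tested with edgeR 4.0.16 in R 4.3.3 (TMM, filterByExpr, quasi-likelihood F-test, two-sided, Benjamini-Hochberg over all genes tested, threshold 0.05), each experiment on its own. NICD1-ER replicates 1 and 2 at 4 h and at 8 h differed by less than sampling noise (chi-square per gene 0.907 and 0.835, for genes of 50 counts or more) while other pairs of their groups did not, and each pair was summed to 1 sample. DESeq2 1.42.0, other filters and scalings, and left-out libraries were alternatives. Fits were checked on simulated counts, with 96.5% of 200 changed genes among 11703 recovered at a median absolute log2 change of 1.99 for NICD1-ER at 24 h. The share of false calls was 4.46% there, 8.02% for BioNICD1 in depleted cells, 5.71% for KYOT2 wild type against GFP and 2.93% for GSI. Smaller changes, such as most of those reported here, were not simulated, so their recovery is not known.

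Named members are the 12 with the largest smaller rule difference, all in fixed lists, up to 6 with the largest called rise and fall per test, and the 3 nearest the threshold on each side. Others are said to be named after their values were seen. Intervals and floors cover counting error or the spread of these libraries only.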

Additional observations from a re-analysis of the deposited data

Results flagged for a closer look

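The levels of 77 members differed between 4 h and 24 h of 4-OHT, by the direct test of 24 h against 4 h. That was edgeR's quasi-likelihood test, adjusted over all genes. Among them 67 were higher and 10 lower at 24 h, against 8.00% and 5.41% of all genes. Ethanol was taken at 24 h only, so time in culture is part of this contrast. Cd7, Socs3 and Cntnap2 had the largest rises and Cmpk2 the largest fall. DESeq2 gave 52 such members, 49 higher and 3 lower, against 1.93% and 0.453% of 18113 genes, a wider set with low counts kept.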

How the results depend on the processing

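Counts of members called ran from 55 to 67 at 24 h of 4-OHT with 1 sample left out (73 with all), from 40 to 46 at 8 h (48), from 28 to 39 at 4 h (41), and from 59 to 73 for 24 h against 4 h (77). They ran from 0 to 0 for BioNICD1 in depleted cells (0), from 1 to 2 for KYOT2 wild type against GFP (3), from 0 to 0 for WWAA against GFP (0), from 5 to 7 for wild type against WWAA (7) and from 18 to 22 for GSI (33). Left-out samples leave some groups with 1 sample, which is then assumed to vary like the other groups. The share of all genes called in those fits is not given. The counts therefore do not tell whether members lost calls more often than other genes. DESeq2 called 23 members at 4 h, 5 with BioNICD1 in depleted cells and 2 with GSI. In the same order 0.69%, 0.953% and 1.18% of all genes rose and 0.48%, 0.364% and 2.42% fell. Without a filter on low counts 2 members were called with BioNICD1 in depleted cells, 11 for KYOT2 wild type against GFP, 1 for WWAA against GFP and 12 for wild type against WWAA, where 0.176%, 1.54%, 0.387% and 2.32% of all genes were called. The fit of all 4 BioNICD1 groups called 6. Chosen after seeing the data, leaving out the 2 most distant depleted libraries gave 9, and leaving out the replicate 3 libraries of KYOT2 gave 7, 1 and 11. The causes were not tested. Over the 70 pairs of a gene and a comparison with the largest called changes, 556 of 638 values under the alternatives kept direction and side of the threshold, 82 lost the threshold and 0 reversed.

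The number of members was 121 with TMM library sizes, 104 with more than 10 control counts and 106 with both lines at a difference of 1, and from 101 to 144 with 1 library of the rule left out. Without control-line replicate 1 it was 101, of which 97 are among the 133, and without replicate 2 it was 127, of which 86 are. The first control-line library holds 2377028 counts, where 3 counts are worth 1.26 CPM, and 29 members rest on 4 to 10 control counts.

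Replicate numbers were not taken to pair the samples, since the labels do not say so and the correlations of same-numbered samples did not all pass 0.1 over 3 or more numbers. Deviations of same-numbered samples correlated at 0.0524 to 0.160 for NICD1-ER, 0.0349 to 0.408 for KYOT2, 0.0268 for GSI and -0.491 to 0.607 in depleted cells. The 9 KYOT2 values were all above 0, and those of replicate 3 were 0.284, 0.288 and 0.408, which is a hint from the data and not from the design. The 6 values of the control and edited lines, which have 2 numbers and no test, were 0.433 to 0.608. With the replicate number as a block, 81, 59, 48 and 80 members were called for 24 h, 8 h, 4 h and 24 h against 4 h (14.2%, 15.3%, 9.95% and 19.3% of all genes), 0 for BioNICD1 in depleted cells (0.00923%), 11, 0 and 11 for KYOT2 wild type against GFP, WWAA against GFP and wild type against WWAA (2.87%, 0.601% and 5.09%) and 34 for GSI (21.8%).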
